A study of Arabidopsis thaliana with 5 samples.

Results

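The genes described here are 78 members of the NAC family of Arabidopsis thaliana, out of 27444 protein-coding genes on the 5 nuclear chromosomes. They carry a symbol of NAC or ANAC plus a number in the gene table, and 6 NAC genes of the root cap and of xylem vessels (FEZ, SMB, NAC015, NAC070, NAC101 and VND7) were left out by name, of which 3 would have met the symbol rule. Chromatin immunoprecipitation followed by sequencing was done on whole roots of Columbia plants, with an antibody against GFP that also recovers its yellow variant. The samples were 2 libraries from plants expressing BLUEJAY (BLJ) fused to yellow fluorescent protein, 2 from plants expressing JACKDAW (JKD) fused to the same protein, and 1 from wild-type plants put through the same protocol. Per the labels, the BLJ fusion was made in the ground tissue and the JKD fusion in the ground tissue and the quiescent centre. What promoters drove the fusions, and how many plant lines were used, the sources used here do not say. All plants grew on plates of sucrose medium without added treatment. Since whole roots were used, a region found in few cells and a region weakly bound in many cannot be told apart.

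NAC proteins are plant transcription factors that bind DNA through a conserved domain at the amino-terminal end. The rest of the protein varies and acts in activating or repressing transcription. In roots the family is known for vessel and sieve element formation, lateral root formation, stress responses and cell death, and several members are held at membranes until they are cut free. BLJ and JKD are C2H2 zinc finger factors of the INDETERMINATE DOMAIN family, known for patterning of cortex and endodermis together with SHORT-ROOT and SCARECROW. The regions described below are those the authors listed for each factor at or near NAC genes. Binding at these places was not tested further, and the regions say nothing of whether the NAC genes were expressed.

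The data were 1 list of regions per factor, made by the authors from both replicates. The BLJ list held 24229 regions covering 31.7 Mb and the JKD list 21985 regions covering 27.0 Mb. A region's entry held a pair of densities, 1 for each replicate, of unknown order and so named first-listed and second-listed here, and an irreproducible discovery rate (IDR), which is low where the replicates rank a region alike. List medians were 1.60 and 1.38 for BLJ, and 1.09 and 1.49 for JKD. A density percentile is the share of regions of the same list whose mean log2 density is the same or lower. Near means that a region overlapped the gene or its flanks of 1000 bp, and the region of highest density stands for the gene. The depth of the libraries is unknown. No wild-type table was used here, so no value has a wild-type background. The family was chosen by gene symbol, with its share near regions, its densities and its IDR values in these same lists already known, so every value given for the members is a description and no test was made.

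NAC genes lay near regions of both factors about as often as other genes did. Of the 78 members, 63 (80.8%, 95% Wilson interval 70.7 to 88.0) were near a BLJ region, where 80.8% of all genes were. Near a JKD region were 57 members (73.1%, 62.3 to 81.7), where 76.8% of all genes were. These intervals cover counting error only. Longer genes meet regions more often, so other genes were also weighted to the members' lengths in 10 bins, which gave 82.2% for BLJ and 78.1% for JKD. The difference of members minus genes of like length was -1.43 percentage points for BLJ and -5.05 percentage points for JKD, both smaller than the half-width of the intervals. With the denser 50% of each list alone, 42 members were near a BLJ region (53.8%, against 57.7% of all genes) and 40 near one of JKD (51.3%, against 53.3%). The gene itself was overlapped by a BLJ region in 55 members (70.5%, against 71.0% of all genes) and by one of JKD in 50 (64.1%, against 65.3%).

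**Figure D1:**
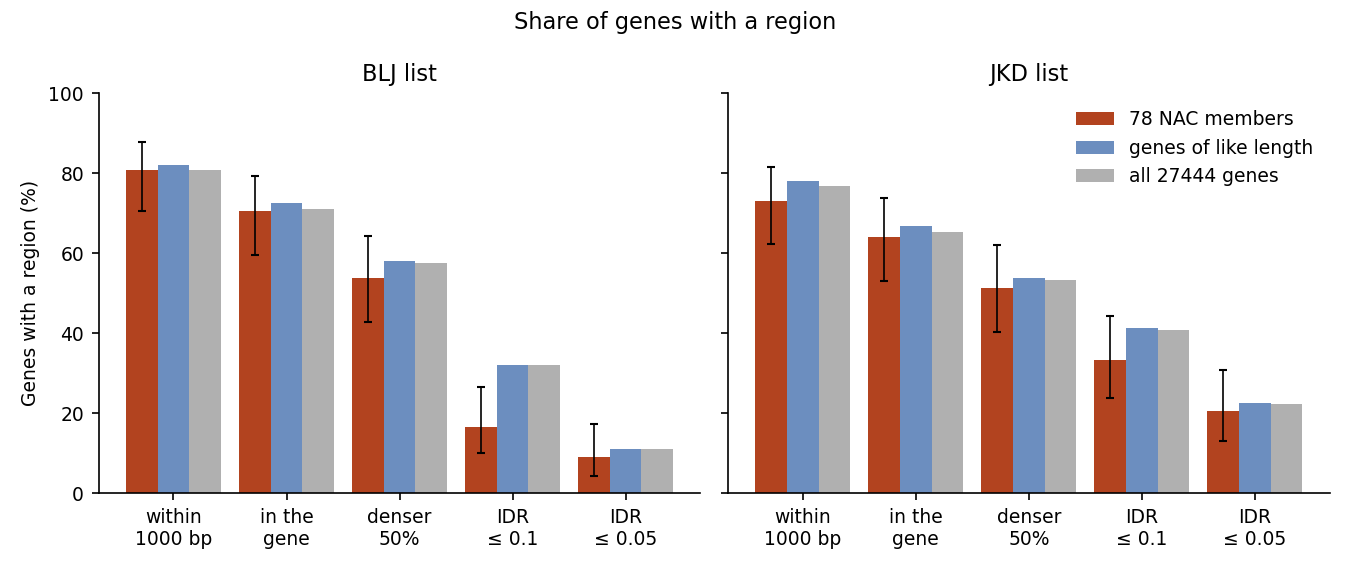
Share of genes with a region (y axis, percent) in the BLJ list (left) and the JKD list (right) for 5 definitions of a region near a gene (x axis), for the 78 NAC members (red, bars with 95% Wilson intervals), other genes weighted to like length (blue) and all 27444 genes (grey). At an IDR at or below 0.1 the BLJ share of members was 16.7%, against 32.1% for all genes, and in the other 9 groups the intervals of the members held the share of all genes.

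Short members had regions less often than long ones. Among the 19 members under 1500 bp, BLJ was listed at 12 and JKD at 10 (63.2% and 52.6%), and other genes of that length had 66.6% and 62.6%. Among the 15 members of at least 3000 bp these were 13 and 12 (86.7% and 80.0%), with 90.2% and 86.6% for other genes. The median member measured 1930.5 bp and the median gene 2078 bp. Only 4 members lie on chromosome 2 and 7 on chromosome 4, while chromosomes 1, 3 and 5 hold 23, 21 and 23.

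Both factors were listed at 50 members (64.1%), where 71.2% of all genes and 72.6% of genes of like length had both. BLJ alone was listed at 13 members (16.7%, against 9.57% of all genes), JKD alone at 7 (8.97%, against 5.60%) and neither at 8 (10.3%, against 13.6%). Where both were listed, the densest BLJ region and the densest JKD region overlapped each other at 42 of 50 members (84.0%), and at 70.4% of the 19544 such genes in all. Members near both had median density percentiles of 77.4 in the BLJ list and 72.6 in the JKD list, against 71.0 and 68.4 for all such genes. The 13 near BLJ alone had a median of 45.3 in that list, against 44.2 for all such genes, and the 7 near JKD alone had 40.1, against 49.7. Regions at genes near 1 factor were thus lower in density than those at genes near both over all genes too.

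NAC010, a secondary wall gene also known as SND3, carried the densest regions of the members in both lists. Its BLJ region (TAIR9 chromosome 1, 10012267 to 10015416) had densities of 1.87 and 3.12, which is percentile 99.5 of the list, with an IDR of 0.0408. The JKD region at the same place (10012220 to 10015453) had densities of 1.41 and 3.18, percentile 99.8, with an IDR of 0.00132. In both lists the second-listed value stood further above its list median than the first-listed one. The JKD region overlapped NAC010 at its edge and the BLJ region ended 9 bp from it, while another BLJ region overlapped the gene. Both of the densest regions also reached GRX480, a glutaredoxin gene, and SYP61, a syntaxin gene, so these regions cannot be given to 1 gene.

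Next by the sum of ranks over both lists were NAC038, NAC102, NAC062, NAC076, NAC071, NAC001, NAC003, NAC057 and NAC032. At NAC038 (AT2G24430) the BLJ region on chromosome 2 (10383450 to 10385308) held densities of 2.31 and 1.86, and the JKD region (10383555 to 10385153) held 1.20 and 2.00. Both overlapped the gene, at percentiles 98.0 and 94.3, and both also reached the neighbouring gene AT2G24420. NAC071 is known for tissue reunion in cut stems. Its BLJ region on chromosome 4 (9979127 to 9980264) held 1.87 and 1.85, and its JKD region (9978712 to 9980323) held 1.36 and 1.65. All 4 of these values lay above their list medians. At NAC001 (AT1G01010), the first gene of chromosome 1, the densest regions lay beside the gene, 260 bp away for BLJ (2605 to 3371, densities 1.72 and 1.77) and 304 bp away for JKD (2500 to 3327, densities 1.29 and 1.92). Another region in each list overlapped NAC001.

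**Figure D2:**
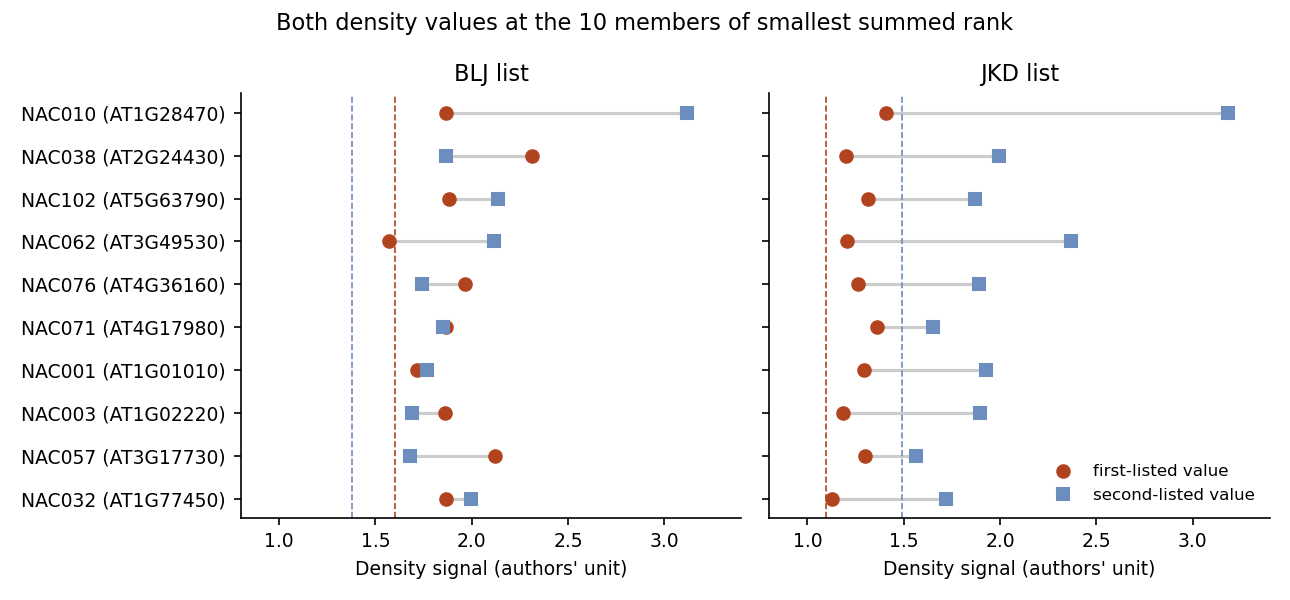
Density signal in the authors' unit (x axis) of the densest region at the 10 members with the smallest summed rank (rows), in the BLJ list (left) and the JKD list (right). Circles are the first-listed and squares the second-listed replicate value, and dashed lines are the list medians of each. At NAC010 the second-listed values were 3.12 (BLJ) and 3.18 (JKD), and at NAC062 the first-listed BLJ value, 1.57, lay below its list median of 1.60.

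Over all members near a region, the median density percentile was 71.9 in the BLJ list (63 genes), where all 22170 genes near a BLJ region had 68.5. In the JKD list it was 65.9 (57 genes), against 67.4 for 21082 genes. A region at or above percentile 90 was found at 13 members for BLJ (16.7%, against 13.7% of all genes) and at 12 for JKD (15.4%, against 13.2%). The 7 members at or above 90 in both lists (8.97%, against 6.55% of all genes) were NAC010, NAC038, NAC102, NAC062, NAC076, NAC071 and NAC003. Members' densities ran from 1.32 to 2.59 (first-listed) and 1.11 to 3.12 (second-listed) in the BLJ list, and from 0.970 to 1.41 and 1.21 to 3.18 in the JKD list. No member came near the highest densities of the BLJ list, 14.6 and 9.05.

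Genes of the secondary wall and xylem spanned almost the whole range of density. Of 10 members with such a role, 8 had BLJ regions and 7 had JKD regions (80.8% and 76.8% of all genes did), at percentiles of 5.49 to 99.5 and 11.2 to 99.8. After NAC010, the densest was NAC076 (VND2), which drives vessel formation. Its densest BLJ region on chromosome 4 (17114804 to 17115893) held 1.96 and 1.74 and lay 663 bp from the gene. Its JKD region (17114331 to 17115794) held 1.26 and 1.89 and lay 190 bp away. Both also reached the neighbouring gene AT4G36170, and another BLJ region lay 81 bp from NAC076. NAC083 (VNI2), a repressor that binds the vessel regulator VND7, was overlapped by a region in each list, with BLJ densities of 1.71 for both replicates and JKD densities of 1.16 and 1.83. Among the master regulators of fibre and anther wall thickening, NAC012 (SND1, also called NST3) had a BLJ region of percentile 45.3 (1.84 and 1.18) and no JKD region. The median over all genes near BLJ alone was 44.2. NAC066 (NST2) had the lowest percentile of the members in the BLJ list, 5.49, with densities of 1.48 and 1.11, and 11.2 in the JKD list with 1.03 and 1.32. NAC073 (SND2) had a BLJ region alone, at percentile 11.9. Of the other VND genes, which act in vessels, NAC105 (VND3) had regions of both factors at percentiles 53.7 and 49.2, ANAC026 (VND5) a JKD region alone at 40.1, and NAC007 (VND4) neither. NAC075 had both, at 50.2 and 76.0.

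In the phloem, NAC045 and NAC086, which act in the loss of the nucleus from sieve elements, were near regions of both factors. Of all genes, 71.2% were. On chromosome 5, the BLJ region over NAC086 (5674521 to 5675770) had an IDR of 0.0441 and densities of 1.83 and 1.57. The JKD region over it (5674349 to 5675618) had an IDR of 0.119 and densities of 1.12 and 1.61. NAC045 had a BLJ region inside the gene at percentile 71.9 and a JKD region 178 bp outside it at 4.48, the lowest of the members in the JKD list. NAC020 had neither.

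The role list of NAC proteins held at membranes, which may not be complete, has 10 members and 4 genes under other symbols. Of the 10 members, 9 were near regions of both factors (71.2% of all genes were). Their percentiles were 28.4 to 96.9 in the BLJ list and 11.8 to 98.0 in the JKD list. NAC062 (NTL6), which is released from membranes under cold and other stresses, lay wholly under a BLJ region of 5568 bp on chromosome 3 (18360991 to 18366558), which covered 100% of the gene and its flanks. Its densities were 1.57 and 2.12, and the JKD region there (18359365 to 18365612) had 1.20 and 2.37 and covered 92.3%. Both regions also reached both neighbouring genes. NAC016, a promoter of leaf senescence, had a BLJ region on chromosome 1 (12447724 to 12448988) of densities 2.49 and 1.58 with an IDR of 0.0217, the lowest IDR of any member's densest BLJ region. The JKD region at that place had densities of 1.30 and 1.30 and an IDR of 0.274. NAC017, which passes mitochondrial stress signals to the nucleus, lies beside NAC016 and had percentiles of 41.5 and 65.9. NAC13 (AT1G32870), which acts in the same signalling, was the 1 member of the group near neither factor. NAC053 with its flanks was covered to 98.0% by BLJ and 93.6% by JKD regions, and its neighbouring genes lie 14 and 43 bp away. AT5G04410, entered as NAC2 and also known as ANAC078, was covered with its flanks to 93.5% and 44.5%. Of all genes, 3.12% were covered with flanks to at least 90% by BLJ regions and 3.22% by JKD regions. NAC053 and AT5G04410 are both known for the response to loss of proteasome activity.

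**Figure D3:**
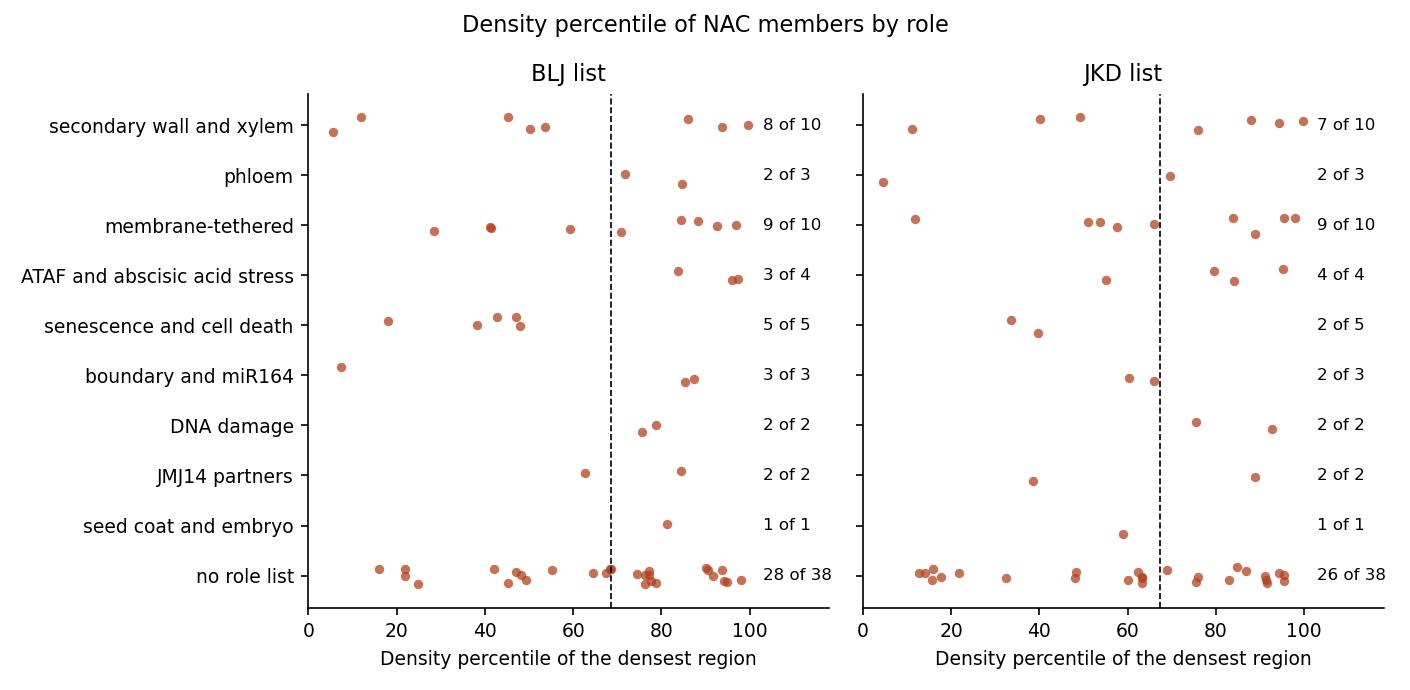
Density percentile of the densest region within 1000 bp (x axis) for each NAC member near a region (points), by role (rows), in the BLJ list (left) and the JKD list (right). Numbers at the right of each panel give members near a region of all members in the row, and the dashed line is the median over all genes near a region (68.5 for BLJ, 67.4 for JKD). Members of the senescence row lie at 18.1 to 47.9 in the BLJ list, and at 33.6 and 39.6 in the JKD list. NAC016 is drawn in the membrane-tethered row (96.9 for BLJ), and NAP (93.8 for JKD) is no member and is not drawn.

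In the ATAF and abscisic acid list, 3 of 4 members had BLJ regions and 4 had JKD regions. Among all genes these shares were 80.8% and 76.8%. Percentiles of these members were 83.7 to 97.3 for BLJ and 55.2 to 95.1 for JKD. Medians over all genes with a region were 68.5 and 67.4. The share of all genes above both medians was not counted, so role lists are not compared with each other here. Of the 3 genes of that role list under other symbols, ATAF2 lay above both medians (92.4 and 93.9). RD26 lay below both (44.7 and 55.3), and ATAF1 below for BLJ (66.9). Senescence genes lay on both sides of the medians, those above being outside the 5 members in the senescence list. NAC016, placed above with the membrane-held proteins, stood at 96.9 for BLJ and 57.6 for JKD, and NAP, a driver of leaf senescence whose symbol is outside the rule, at 45.5 and 93.8. NAC102, known for survival of seeds under low oxygen, was overlapped on chromosome 5 by a BLJ region (25524972 to 25528740) with densities of 1.88 and 2.14, and by a JKD region (25523511 to 25528704) with 1.31 and 1.87. These stood at percentiles 97.3 and 95.1, and both also reached the neighbouring gene SHA1. NAC032, its close relative in stress and senescence responses, stood at percentile 96.0 for BLJ, with densities of 1.87 and 2.00, and at 79.7 for JKD, with 1.13 and 1.72. AT3G15500, entered as NAC3 and known as ANAC055 of abscisic acid and jasmonate responses, had percentiles of 83.7 and 84.1. NAC019, which acts alongside it, had a JKD region at 55.2 and no BLJ region. The 5 senescence members all had a BLJ region, at percentiles of 18.1 to 47.9, where 80.8% of all genes had one. A JKD region was listed at 2 of the 5, at 33.6 and 39.6, where 76.8% of all genes had one. ORE1 (AT5G39610, entered as NAC6), a driver of age-dependent leaf senescence, carried 1.34 and 1.56 in its BLJ region, and 1.02 and 1.49 in its JKD region. NAC042 (JUB1), a negative regulator of senescence, had BLJ values of 1.80 and 1.23, against JKD values of 1.10 and 1.41. ORS1 (AT3G29035, entered as NAC3), the sister of ORE1, and NAC046 and ANAC087, known for cell death in the root cap as well as senescence, had a BLJ region alone, at 47.0, 42.8 and 18.1.

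Among targets of miR164, NAC1, which passes auxin signals to lateral root formation, had 3 regions of each factor. Its densest BLJ region on chromosome 1 (20945632 to 20947977) had densities of 1.65 and 1.82, and the JKD one (20946379 to 20947946) had 1.17 and 1.52. NAC080 had percentiles of 85.3 and 60.3. NAC100 had a BLJ region alone, at 7.39. NAC044 and NAC085, which stop the cell cycle after DNA damage downstream of SOG1, both had regions of each factor (71.2% of all genes did). At NAC044 these lay inside the gene at percentiles 78.7 and 92.7, the JKD region with an IDR of 0.0105. At NAC085 the densest regions lay 808 bp and 857 bp away, at 75.6 in both lists, and another JKD region overlapped the gene. NAC050 and NAC052 are partners of the histone demethylase JMJ14. NAC050 stood at 62.7 in the BLJ list and 38.7 in the JKD list, and NAC052 at 84.5 and 88.9. NARS1 (AT3G15510, entered as NAC2), which acts in seed coat development, had 81.3 and 58.9. Of the 38 members in none of the 9 role lists, 28 had BLJ regions and 26 had JKD regions (80.8% and 76.8% of all genes did), at median percentiles of 71.6 and 63.2.

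The same members were not always dense in both lists. Over the 50 members near both, the Spearman correlation of the percentiles was 0.588, and over all 19544 such genes it was 0.524. These are descriptions across genes, which share libraries, sequencing runs and in part the same stretch of DNA. With the first-listed values alone the correlation was 0.253 over members and 0.199 over all such genes, and with the second-listed values alone 0.600 and 0.506. The percentile was higher in the BLJ list at 27 of 50. NAC058 reached percentile 93.8 for BLJ with densities of 2.59 and 1.32, but 15.6 for JKD with 1.06 and 1.32, and its BLJ standing rested on the first-listed value. NAC069, a membrane-bound factor of salt and auxin responses, had 70.8 and 11.8. NAC084 had 21.9 and 75.6, and AT5G04410 had 41.1 and 83.8. NAC103, an activator in the unfolded protein response, reached 91.2 in the JKD list on densities of 0.970 and 2.30 with an IDR of 0.339, so that the values of the replicates were far apart.

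**Figure D4:**
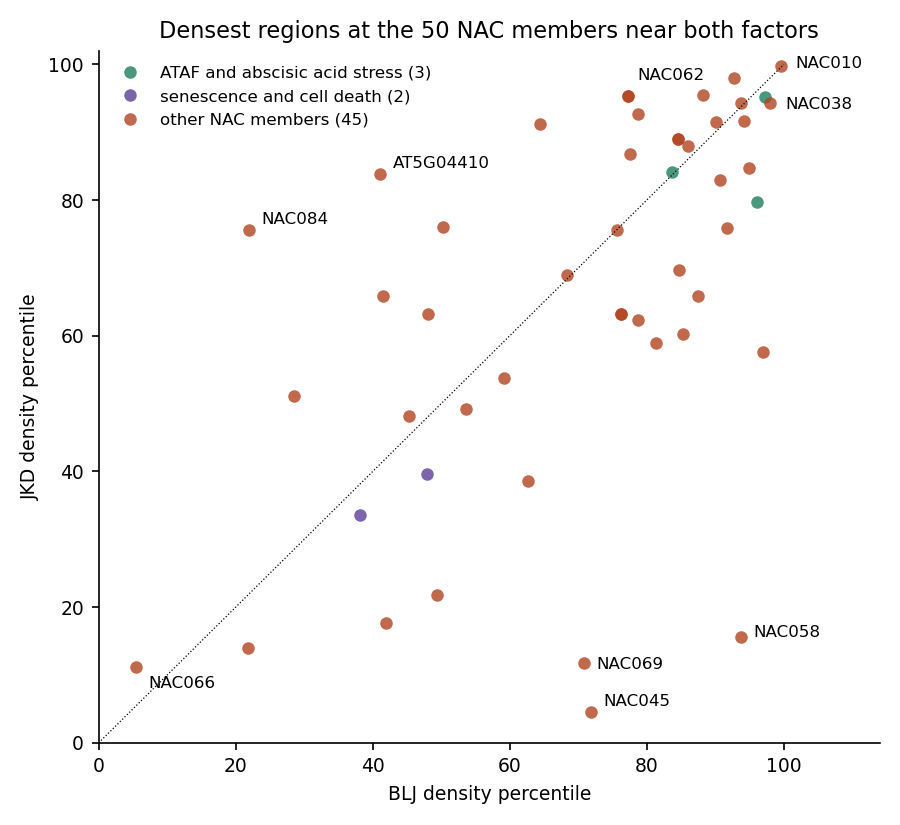
Density percentile in the BLJ list (x axis) and in the JKD list (y axis) of the densest regions at the 50 NAC members near both factors, 1 point per gene, with ATAF and abscisic acid genes in green and senescence genes in purple. The dotted line marks equal percentiles. NAC010 stands at the top right (99.5 and 99.8), NAC066 at the bottom left (5.49 and 11.2), and NAC058 at the bottom right (93.8 and 15.6).

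Among members near 1 factor only, for BLJ alone the 5 densest were NAC028 (percentile 74.5, densities 2.00 and 1.31), NAC090 (68.7), NAC023 (67.5), NAC065 (55.1) and NAC064 (47.1). For JKD alone they were NAC067 (60.2, densities 1.05 and 1.64), NAC019 (55.2), NAC011 (48.1), ANAC026 (40.1) and NAC094 (32.5). The 8 members near neither were NAC007, NAC13, NAC020, NAC024, NAC061, NAC063, NAC093 and NAC097. Some members missed the limit of 1000 bp for a factor narrowly. For BLJ the member just inside it was NAC085 at 808 bp and the one just outside NAC067 at 1095 bp, and for JKD these were NAC025 at 749 bp and NAC088 at 1056 bp. The member farthest from any region of a list was ORS1, 9214 bp from the nearest JKD region.

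At an IDR of 0.05 or less, 7 members had BLJ regions (8.97%, against 11.2% of all genes) and 16 had JKD regions (20.5%, against 22.2%). At or below 0.1 these were 13 (16.7%, against 32.1%) and 26 (33.3%, against 40.8%). The BLJ share at 0.1 was known when the family was picked. The 7 for BLJ were NAC010, NAC014, NAC016, NAC066, NAC077, NAC086 and AT5G04410, of which NAC077 and AT5G04410 are neighbours that share the region concerned. Only NAC010 and NAC077 passed 0.05 in both lists (2.56%, against 3.78% of all genes). The Spearman correlation of density and IDR was -0.361 over the 63 members in the BLJ list, against -0.238 over all genes near a region, and -0.673 over the 57 in the JKD list, against -0.739. NAC066 had an IDR of 0.0308 and the lowest BLJ percentile of the members.

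Some members share regions because they lie side by side. The table holds 9 pairs of neighbouring members, and 63 members near BLJ regions had 60 distinct densest regions, as 57 near JKD regions had 54. NAC052 and NAC053 shared a BLJ region of 4417 bp on chromosome 3 (3270832 to 3275248, densities 1.62 and 1.77) and a JKD region (3270577 to 3272545, densities 1.25 and 1.71). A JKD region of 3611 bp (3266651 to 3270261) reached NAC050, NAC052 and NAC053. NAC048 and NAC049 shared a JKD region (1174919 to 1175989) of densities 1.25 and 1.98 and an IDR of 0.00597, which overlapped NAC049 and lay 411 bp from NAC048. Their values are therefore not independent. Regions at members were less often shared with other protein-coding genes. The densest BLJ region reached 1 gene only at 20 of 63 members (31.7%, against 21.5% of all genes near a region), and the densest JKD region at 19 of 57 (33.3%, against 21.7%). The wider of the 2 gaps to the neighbouring genes had a median of 2550 bp at members and 1461 bp at all genes, and the narrower one 710 bp and 190 bp.

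Cover outside NAC genes differed from that at all genes by distance, and by whether positions inside other genes were counted. At 100 to 1000 bp inside the edges of the 74 members of at least 1000 bp, BLJ regions covered 47.1% of positions and JKD regions 36.8%, where all 23067 such genes had 45.2% and 37.1%. At 100 to 1000 bp outside the edges the cover was 28.2% and 27.3% for members, against 32.7% and 29.3%. At 1100 to 2000 bp outside it was 20.6% and 19.0%, against 32.8% and 28.3%. Positions at that distance lay inside another protein-coding gene in 41.7% of cases for members and in 63.0% for all genes. Counting positions outside genes alone, the mean cover at 100 to 1000 bp was higher at members, 21.4% and 23.6%, against 19.0% and 20.4%. By step, members were lower at 100 and 1000 bp in both lists and at 200 bp for BLJ, and higher at the other steps. At 1100 to 2000 bp the cover outside genes was 6.95% and 9.50% for members, against 13.7% and 15.5%. At 2100 to 3000 bp it was 11.9% and 12.1%, against 14.3% and 15.8%. Inside other genes the cover at 1100 to 2000 bp was 39.7% and 32.3%, against 44.0% and 35.8%. Without strand in the gene table, upstream and downstream edges were counted together.

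**Figure D5:**
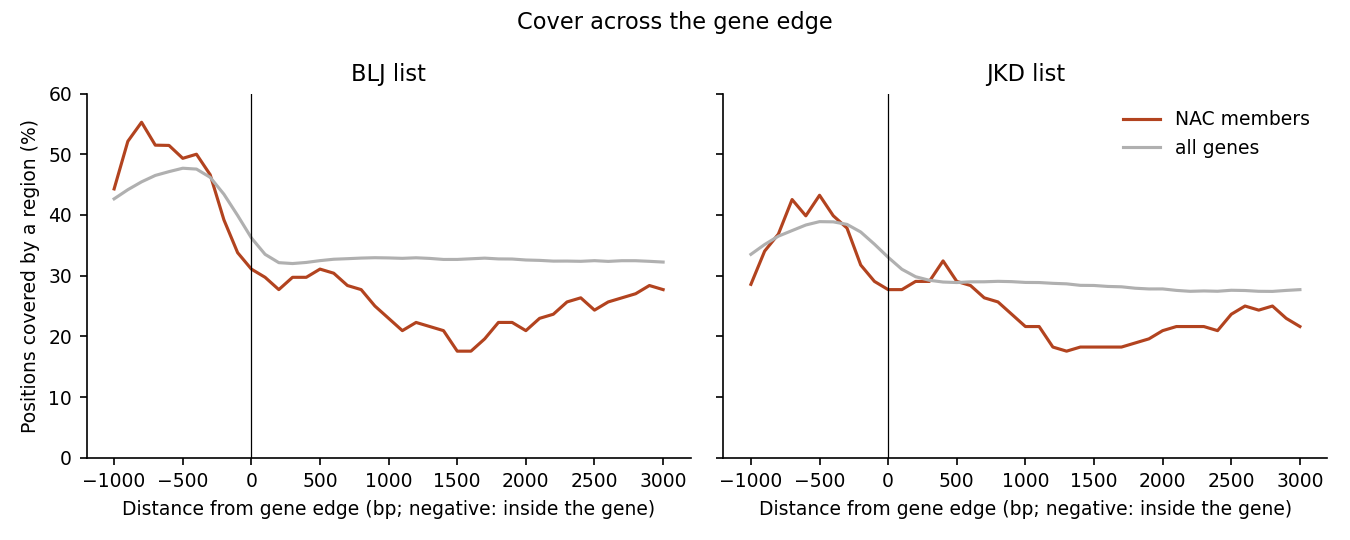
Share of positions covered by a region (y axis, percent) against the distance from the gene edge (x axis, bp, negative inside the gene, both edges together, steps of 100 bp), for the 74 NAC members of at least 1000 bp (red) and all 23067 genes of that length (grey), BLJ list left and JKD list right. Beyond 1000 bp the member curves lie below those of all genes, at 20.6% against 32.8% for BLJ and 19.0% against 28.3% for JKD over 1100 to 2000 bp.

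Some NAC genes of the role lists are entered under other symbols, which the symbol rule misses. Of 16 such genes, 15 were near regions of both factors (71.2% of all genes were) and NST1, a master regulator of wall thickening, near neither. The median BLJ percentile was 71.9 for members and 71.0 for these genes, and the median JKD percentile 65.9 for members and 90.025 for these genes. FEZ, VND7 and SMB, left out by name and also outside the symbol rule, are not among the 16. FEZ stood at 66.1 and VND7 at 37.1 in the JKD list, and SMB had no region in either list. TIP, a membrane-bound factor bound by a viral coat protein, stood at 98.2 for BLJ (densities 1.65 and 2.66) and 97.6 for JKD (1.15 and 2.42). NAM (NARS2) stood at 56.6 for BLJ and at 99.7 for JKD, where its densities were 1.83 and 2.27. That JKD region lay 816 bp from NAM, and another JKD region overlapped the gene. The organ boundary genes CUC1, CUC2 and CUC3 had BLJ percentiles of 80.3, 85.4 and 91.9, and JKD percentiles of 85.5, 90.025 and 95.6. ATAF2 and ATAF1 completed the ATAF branch, ATAF2 at 92.4 for BLJ and 93.9 for JKD, ATAF1 at 66.9 and 97.4, and RD26, of dehydration responses, had 44.7 and 55.3. XND1, a repressor of xylem formation, had 91.5 and 96.5. Its densest JKD region lay 844 bp away, and no JKD region overlapped the gene. Among other families taken by symbol, BLJ regions lay near 81 of 116 MYB genes (69.8%) and JKD regions near 80 (69.0%). For 67 WRKY genes these were 57 (85.1%) and 58 (86.6%). The share of NAC members lay between those of these families for both factors.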

How the data were processed

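Roots were immunoprecipitated with an antibody against GFP. Bowtie and CASAVA are the tools, and TAIR9 the build, named per the submitters' processing notes. The sources used here do not state the peak caller, the use of the control or the density normalization. The deposited sample sheets put the control with the first BLJ and JKD replicates in lane 5, and the second replicates in lane 2 of a different flow cell. The authors deposited 1 list per factor with a density signal per replicate and an IDR, a fraction between 0 and 1 per the file headers. Coordinates are 1-based and those of the deposited regions. The density was compared only within a list.

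Gene names, lengths and neighbours came from an NCBI table of assembly TAIR10.1, without strand, exons or sequence. The planned motif counts, protein lengths and sequences were therefore not run. Like-length shares weight other genes by the members' counts in 10 bins of equal size. The members and role lists were chosen with earlier results of these data known. Named genes are members of role lists, the 10 of smallest summed rank, the 5 densest near 1 factor only, those near neither, list extremes and those at an IDR of 0.05 in both lists. Others, such as NAC058, NAC084, NAC103 and the shared pairs, were named after their values were seen. Alternatives changed the window, overlap, IDR limit, density and length bins. Interval code was tested on simulated data. Tables were handled with pandas 2.3.3 and numpy 2.4.6 in Python 3.11.15, intervals with scipy 1.17.1 and plots with matplotlib 3.10.9.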

Additional observations from a re-analysis of the deposited data

How the results depend on the processing

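Of 48 alternative values, 34 moved by less than the interval or the spread between the density values, and the other 14 follow. The share of members near a BLJ region was 70.5% when the gene itself had to be overlapped, 53.8% with the denser 50% of regions, 16.7% at an IDR of 0.1 and 8.97% at 0.05. For JKD the last 3 settings gave 51.3%, 33.3% and 20.5%. The difference from genes of like length was -15.4 percentage points for BLJ at an IDR of 0.1, and between -4.26 and 0.35 under its other alternatives. It was positive only when the 16 genes of the role lists under other symbols were added to the members. Those lists do not hold every NAC gene under another symbol. For JKD it was -7.91 to -1.20. The BLJ median density percentile was 56.7 with regions in the gene alone, 75.9 with flanks of 2000 bp, 50.2 with the nearest region, and 65.0 to 69.4 with 1 density value alone. The JKD median was 51.1 with the nearest region, 72.5 with the same 16 genes added, and 61.5 to 68.8 with 1 density value alone. No paired analysis was possible because each list was made from both replicates together and the order of the density values is not given. Read depth is unknown, so what it limits cannot be stated.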
